A study of Rattus norvegicus with 20 samples.

Results

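The metallothioneins, small cysteine-rich proteins that bind zinc and copper, and a set of genes that move iron were followed through rear-leg skeletal muscle of normal and diabetic rats, with and without vanadyl sulfate, a salt of vanadium that mimics some actions of insulin. The set held 10 of the 8799 probe sets on the array, 3 for metallothioneins and 7 for iron-handling genes. It was made of probe set rc_AI176456_at, which was picked because of its measured values, of every other probe set annotated to Mt1, Mt1a, Mt2, Mt2A or Mt3, and of the probe sets annotated to 1 gene among Tf, Tfrc, Fth1, Ftl1, Cp and Slc11a2. The values of rc_AI176456_at are therefore a description and carry no p-value. The 6 probe sets for transferrin (Tf) and the ferritins (Fth1 and Ftl1) are each annotated to several genes, so no member represents these 3 genes.

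The study had 4 groups of 5 arrays: diabetic rats given vanadyl sulfate, diabetic rats without it, normal rats given vanadyl sulfate, and normal rats without it. Each array held RNA from one muscle sample of about 100 mg, with the poly(A) fraction labelled with biotin, and gave 1 fluorescence signal per probe set. Strain and age of the rats, the way they were made diabetic, the name of the muscle, and how much vanadyl sulfate was given for how long are not given in the sources used. The labels do not tie the 5 replicates of a group to different rats, so the p-values reflect only the spread among these samples, which may be technical.

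Metallothioneins hold and exchange metal ions inside the cell. Their genes are switched on by zinc through the factor MTF1, which binds metal response elements in their promoters, and also by glucocorticoids and oxidative stress; Mt1 and Mt2A are made in most tissues, and Mt3 is best known from the brain. In iron handling, transferrin carries iron in plasma, the transferrin receptor (Tfrc) takes the complex into the cell, Slc11a2 (DMT1) moves the released iron into the cytosol, ferritin stores it, and the copper protein ceruloplasmin (Cp) oxidises iron so that transferrin can bind it. Tfrc messenger is stabilised by iron regulatory proteins when cellular iron is low.

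Median signals of the 20 arrays ran from 378.7 to 651.35. All 10 skeletal muscle markers on the array exceeded the 40th percentile of signal in at least 1 array of every group. Several arrays stood apart. The summed signal of 9 leukocyte genes was 99016 and 94812 in diabetic replicates 1 and 3, and ran from 9067 to 35464 in the other 18 arrays. For Gapdh, the log2 of 3' over 5' signal, which rises with RNA degradation or incomplete labelling, was above 2 in 3 arrays, with values of 3.94 in vanadyl-treated diabetic replicate 1, and 2.90 and 2.91 in normal replicates 1 and 3. Vanadyl-treated normal replicate 5 had the lowest summed blood cell markers of all arrays, at 5429, against 27219 to 60350 in the other 4 arrays of its group. The summed signal of hepatocyte genes was 92836 in diabetic replicate 5 and 4341 to 5447 in the other 4 diabetic arrays. It was also raised in vanadyl-treated diabetic replicates 4 and 5, at 23635 and 54532, and in normal replicates 4 and 5, at 21481 and 17611. In whole muscle, fewer cells of a type and less RNA per cell cannot be told apart.

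Tests were limited to probe sets that exceeded the 40th percentile of their array in 5 or more of the 20 arrays, which kept 6027 probe sets and 9 of the 10 members. The member left out was rc_AA817854_s_at (Cp). Group means of log2(signal + 16) were fitted with limma, the p-values were adjusted over all 6027 probe sets by the Benjamini-Hochberg method, and a change was called at an adjusted p under 0.05. All log2 changes below are on that scale, which understates the change of dim probe sets. In diabetic against normal muscle, 1 of the 8 members with a test rose and 0 fell, beside 1.83% of all tested probe sets called, 1.26% higher and 0.564% lower. In vanadyl-treated diabetic against diabetic muscle 0 of 8 passed, beside 0.498% of all, and in vanadyl-treated normal against normal muscle 0 of 8, beside 0.0664%. In vanadyl-treated diabetic against vanadyl-treated normal muscle 0 of 8 passed, beside 0% of all, and for the interaction of diabetes and treatment 0 of 8, beside 0.166%. By limma's unadjusted p under 0.05 the members numbered 3, 2, 0, 2 and 1 of 8 in these 5 comparisons, in the order given. The shares of all tested probe sets were 16.7%, 16.3%, 9.23%, 17.9% and 13.3%. With 8 members, these counts are too small to be set apart from the background. The comparisons share groups, so they are not independent of each other.

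**Figure D1:**
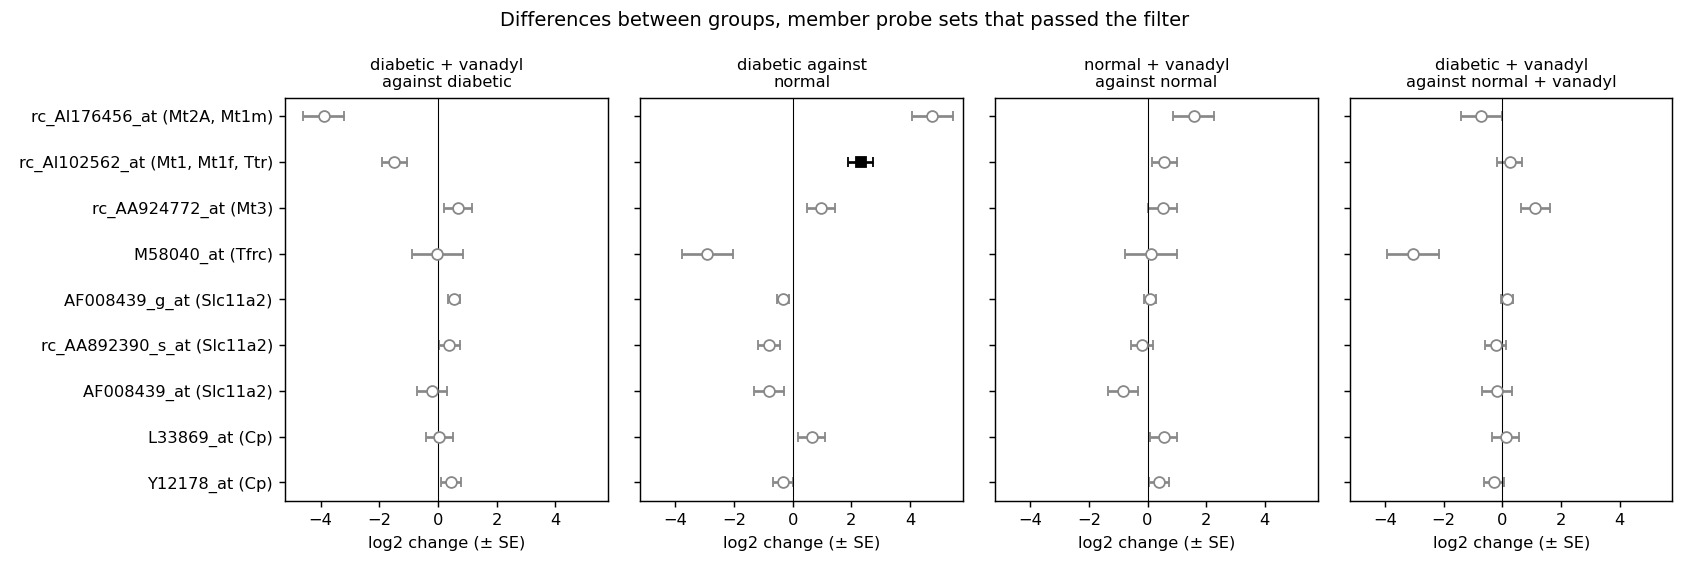
Log2 change of log2(signal + 16) with its standard error for the 9 member probe sets that passed the filter, in 4 comparisons; the filled square is past the adjusted p threshold of 0.05, open circles are not or, for rc_AI176456_at, carry no test. The metallothionein probe set rc_AI102562_at is the only filled point, at 2.32 in diabetic against normal muscle.

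Mt1, Mt2A, Mt3 and Mt4 lie next to each other on rat chromosome 19, with 0 other annotated genes between them, in RefSeq's GRCr8 assembly. The 250 bases before the annotated start of Mt1, Mt2A and Mt3 follow, read 5′ to 3′ on the minus strand, because metal response elements set the known metal response of the family. Capitals mark each match to the metal response element core, TGCACNC or TGCGCNC, on either strand. The windows are chr19:10832976-10833225 for Mt1, chr19:10838709-10838958 for Mt2A and chr19:10856081-10856330 for Mt3.
Mt1: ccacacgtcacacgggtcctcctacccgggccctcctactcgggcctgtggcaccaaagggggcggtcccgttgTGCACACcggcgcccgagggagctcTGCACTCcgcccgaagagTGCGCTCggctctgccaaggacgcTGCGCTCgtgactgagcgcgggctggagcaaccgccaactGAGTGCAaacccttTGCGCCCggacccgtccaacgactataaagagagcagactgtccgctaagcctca
Mt2A: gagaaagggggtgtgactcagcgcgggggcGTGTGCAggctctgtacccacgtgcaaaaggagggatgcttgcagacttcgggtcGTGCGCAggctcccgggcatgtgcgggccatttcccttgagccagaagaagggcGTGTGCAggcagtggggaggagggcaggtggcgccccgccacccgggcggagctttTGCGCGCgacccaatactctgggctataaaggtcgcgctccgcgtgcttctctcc
Mt3: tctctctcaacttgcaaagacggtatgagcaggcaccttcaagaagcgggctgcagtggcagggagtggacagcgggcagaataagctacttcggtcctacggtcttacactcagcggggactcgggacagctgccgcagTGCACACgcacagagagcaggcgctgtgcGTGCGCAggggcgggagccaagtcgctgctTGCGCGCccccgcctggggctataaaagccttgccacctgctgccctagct
Over the searched window of 300 bases, which adds the 50 bases after the start, the core occurred 6 times in Mt1, 4 times in Mt2A and 3 times in Mt3. Of 33469 rat promoter windows of that length, 24.2% held the core at least once, 1.68% at least 3 times, 0.439% at least 4 times and 0.0388% at least 6 times. The core of the antioxidant response element, TGACNNNGC, was found once each in Mt1 and Mt2A, overlapping no metal response element core, and in 12.1% of all windows. The window of Mt1f held the metal response element core 0 times and the antioxidant core once, and that of Mt4, which no member stands for, held the metal response element core once. Among the iron genes, the Tfrc window held the metal response element core 3 times, with 2 of these matches overlapping each other, and the windows of Cp and Slc11a2 held it 0 times. A match is a description of the letters and does not show that a factor binds there.

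**Figure D2:**
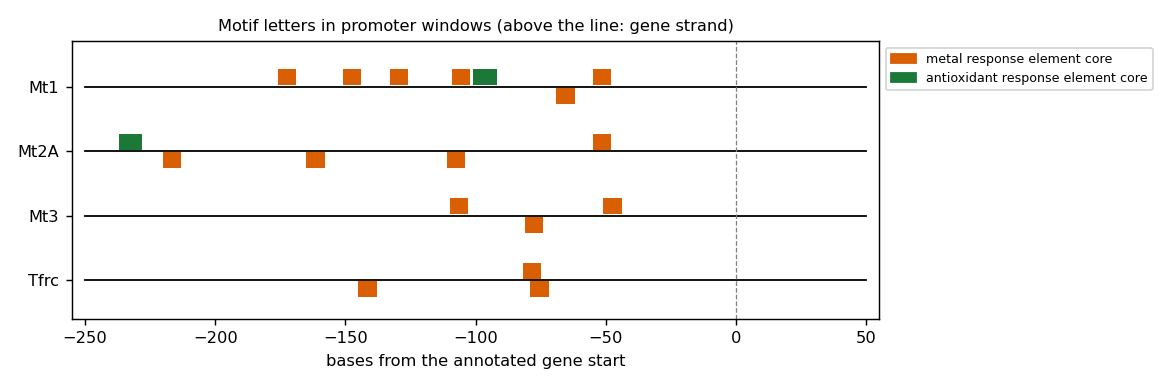
Position of the metal response element core (orange) and the antioxidant response element core (green) in the promoter windows of Mt1, Mt2A, Mt3 and Tfrc, in bases from the annotated gene start; blocks above a line are on the gene's strand and blocks below it on the other. Mt1 holds 6 metal response element cores, Mt2A 4, Mt3 3 and Tfrc 3.

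The largest differences of the set were at rc_AI176456_at, annotated to Mt2A and to Mt1m, which RefSeq lists as a pseudogene on chromosome 20; signal from these copies cannot be told apart. Signals were 1807.8, 1080.8, 2047.1, 8109.8 and 4796.6 in the 5 vanadyl-treated diabetic muscles and 61970.8, 33762.5, 75915.5, 29887.5 and 24068.8 in the 5 diabetic muscles. They were 2024.2, 2872.3, 3992.4, 1859.9 and 43791.8 in vanadyl-treated normal muscle and 2278.1, 672.5, 2047.6, 1687.2 and 1450 in normal muscle. Every diabetic muscle was above every vanadyl-treated diabetic and every normal muscle, and 1 treated normal muscle, replicate 5, lay within the diabetic range.

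On the log2 scale rc_AI176456_at averaged 11.43 ± 1.16 in vanadyl-treated diabetic, 15.32 ± 0.71 in diabetic, 12.15 ± 1.88 in vanadyl-treated normal and 10.57 ± 0.69 in normal muscle (SD, n = 5 each). The difference of diabetic from normal muscle was 4.75 with a standard error of 0.70, a 26.9-fold difference. The difference of vanadyl-treated diabetic from diabetic muscle was -3.89 with a standard error of 0.70, which is 14.8-fold lower. Neither pair of groups overlapped, which held for 3.33% of all tested probe sets in the higher direction for diabetic against normal and for 2.07% in the lower direction for treated diabetic against diabetic. Since rc_AI176456_at was picked from these values, its place among those shares says nothing further.

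The order of the group means for rc_AI176456_at was diabetic, vanadyl-treated normal, vanadyl-treated diabetic, normal. The means of the vanadyl-treated diabetic and treated normal groups differed by -0.72, less than the SD of either group, and by 0.10 without treated normal replicate 5. Treated normal minus normal muscle was 1.58 on the log2 scale, and 0.76 without that replicate. The treatment difference in diabetic muscle minus that in normal muscle was -5.47 with a standard error of 0.99, and -4.65 without it.

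A second metallothionein probe set, rc_AI102562_at, is annotated to Mt1, to Mt1f on chromosome X and to Ttr (transthyretin, a plasma protein made mainly by the liver). It had 2975.8, 2347.1, 3752.8, 5808.2 and 8498.4 in vanadyl-treated diabetic muscle and 19231.9, 7309.6, 20906.8, 7603.7 and 10270.6 in diabetic muscle. It had 2552.8, 3677.5, 3007.5, 2170.2 and 8780.3 in treated normal muscle and 2814.1, 1530.5, 3727.7, 2929.6 and 1548.1 in normal muscle. The diabetic and normal groups did not overlap, which held in the higher direction for 3.33% of all tested probe sets. Treated diabetic replicate 5 lay above diabetic replicates 2 and 4, and treated normal replicate 5 was again the highest of its group.

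The rise of rc_AI102562_at in diabetic over normal muscle was 2.32 ± 0.43 on the log2 scale (SE), 4.98-fold, with limma's adjusted p = 0.00889. This call was lost with the 3' to 5' ratios of Gapdh and beta-actin as covariates, at 2.12 and an adjusted p = 0.0588, and without diabetic replicates 1 and 3 together, at 1.81 and an adjusted p = 0.218. The difference of vanadyl-treated diabetic from diabetic muscle was -1.49 ± 0.43 (SE) and did not pass, with limma's unadjusted p = 0.00244 and adjusted p = 0.122. The interaction, at -2.06 ± 0.61 (SE), did not pass either, with limma's adjusted p = 0.153. Treated normal minus normal muscle was 0.57 ± 0.43 (SE, adjusted p = 0.682 by limma) and treated diabetic minus treated normal muscle 0.25 ± 0.43 (SE, adjusted p = 0.80 by limma).

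The signals of rc_AI102562_at and rc_AI176456_at had a Pearson correlation of 0.93 over the 20 arrays and 0.85 after subtracting each group's mean; the points share arrays and scaling, and the probe sets stand for closely related genes. Ttr's own probe set, rc_AA945169_at, had a median of 990.2 in vanadyl-treated diabetic, 456.4 in diabetic, 561.7 in treated normal and 624.7 in normal muscle. Its range in diabetic muscle, 104.5 to 10076.8, enclosed its range in normal muscle, 251.5 to 3110.3. Its signals were not compared with those of rc_AI102562_at array by array, and the part of Ttr in rc_AI102562_at was not tested.

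Mt3 was measured by rc_AA924772_at, annotated to that gene alone and dimmer within its arrays. Its signals were 1099.1, 620.7, 1167.6, 651.5 and 1261.2 in vanadyl-treated diabetic and 1082.2, 221.7, 817.5, 483.6 and 609.9 in diabetic muscle. In treated normal muscle they were 1219.7, 265.4, 424.7, 194.3 and 425, and in normal muscle 773.4, 125, 324.1, 286.8 and 195.5. Every pair of these groups overlapped. It lay above the array's 40th percentile in 5 vanadyl-treated diabetic, 4 diabetic, 3 treated normal and 1 normal array.

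No difference of Mt3 passed limma's test. Vanadyl-treated diabetic minus diabetic muscle was 0.68 ± 0.49 on the log2 scale (SE, adjusted p = 0.503 by limma), of the opposite sign to the other metallothionein probe sets in that comparison. Diabetic minus normal muscle was 0.96 ± 0.49 (SE, adjusted p = 0.33 by limma) and treated diabetic minus treated normal muscle 1.13 ± 0.49 (SE, adjusted p = 0.237 by limma). Neighbours in the order of the 4 Mt3 means, 9.87 ± 0.48, 9.19 ± 0.84, 8.74 ± 0.97 and 8.23 ± 0.92 on the log2 scale (SD, n = 5, in the order treated diabetic, diabetic, treated normal, normal), differed by less than the larger SD of each pair.

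**Figure D3:**
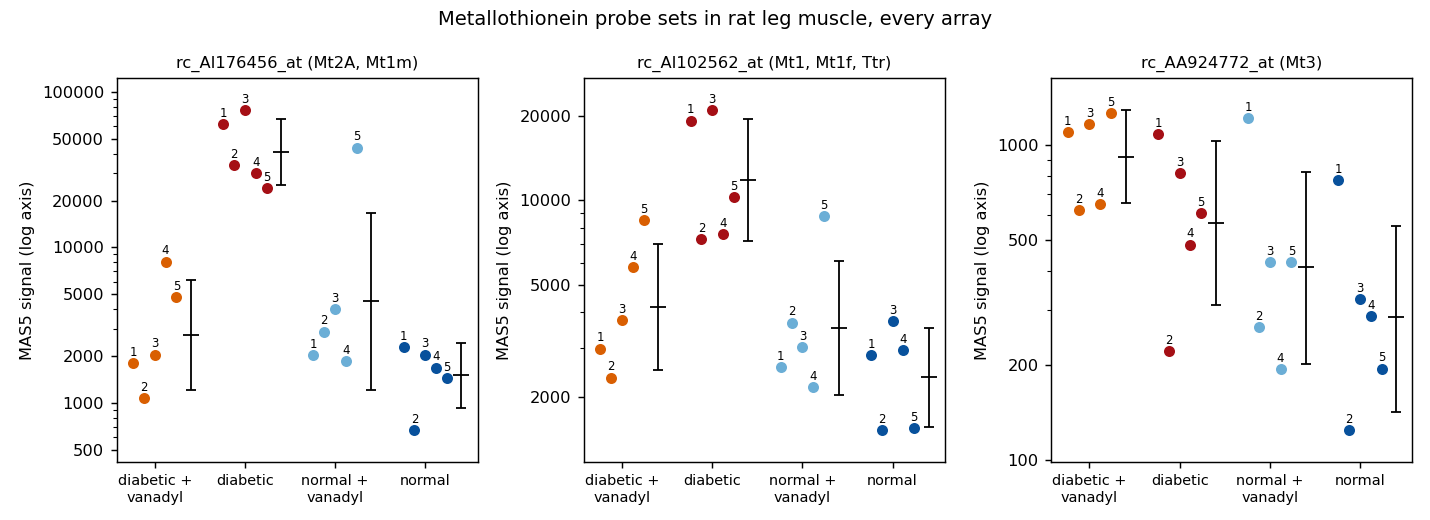
MAS5 signal (log axis) of the 3 metallothionein probe sets in every array; points are arrays labelled by replicate number, and the bar beside each group is the mean ± SD of log2(signal + 16), n = 5, drawn back on the signal scale. For rc_AI176456_at the diabetic arrays lie between 24068.8 and 75915.5, above all vanadyl-treated diabetic and normal arrays, and treated normal replicate 5 stands at 43791.8.

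Most leukocyte markers were also higher in the diabetic group: the median of 8 of the 9 was above that in normal muscle. The exception was Ptprc, the marker common to all leukocytes, with medians of 430.3 in diabetic and 468.2 in normal muscle. The summed signal of the 9 leukocyte genes ran from 9067 to 21657 in vanadyl-treated diabetic, 23193 to 99016 in diabetic, 14373 to 19665 in treated normal and 9155 to 15126 in normal muscle. All 9 lay above the 40th percentile in at least 1 treated diabetic and 1 diabetic array, and 8 of 9 in the treated normal and the normal group; none was at 0. Within the diabetic group, replicates 1 and 3 had both the highest leukocyte sums and the highest rc_AI176456_at signals. These arrays also had the highest summed signals of 6 adipocyte genes, 51664 and 52729. Adipocyte sums ran from 23036 to 34553 in vanadyl-treated diabetic, 32149 to 52729 in diabetic, 19017 to 24718 in treated normal and 14987 to 26415 in normal muscle. Within the vanadyl-treated diabetic group, replicates 4 and 5 had the highest rc_AI176456_at signals and the lowest leukocyte sums, 12583 and 9067. They also had the highest hepatocyte sums of that group, 23635 and 54532. Diabetic replicate 5, with the highest hepatocyte sum of all arrays, 92836, had the lowest rc_AI176456_at signal of its group, 24068.8. The part of leukocytes, adipocytes or liver messenger in the metallothionein differences was not tested. Treated normal replicate 5, with 43791.8 at rc_AI176456_at, had a leukocyte sum of 17264, inside the range of its group. Without diabetic replicates 1 and 3 together, the difference of rc_AI176456_at was 4.25 for diabetic against normal and -3.39 for treated diabetic against diabetic muscle.

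**Figure D4:**
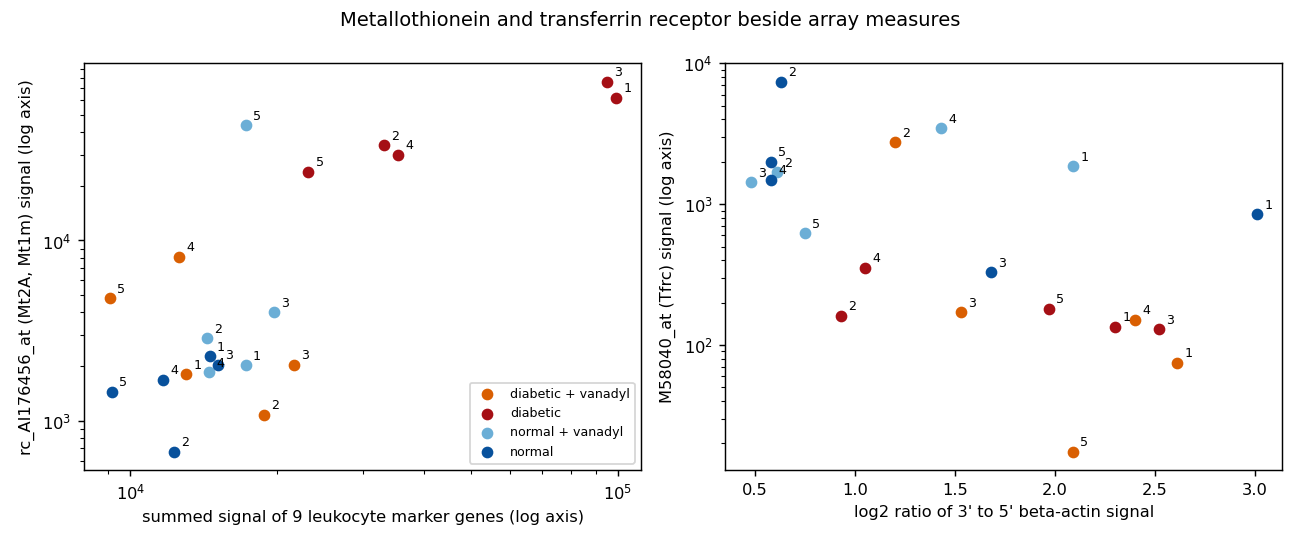
Left, rc_AI176456_at signal against the summed signal of 9 leukocyte marker genes, both on log axes; right, Tfrc signal (log axis) against the log2 ratio of 3' to 5' beta-actin signal; each point is an array labelled by replicate number and coloured by group. Diabetic replicates 1 and 3 have leukocyte sums of 99016 and 94812, above the other 18 arrays, and treated normal replicate 5 has a high rc_AI176456_at signal at a leukocyte sum of 17264.

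Treated normal replicate 5 was also high in other stress genes of its group. Of 16 tested genes on a list of glucocorticoid and stress induced genes, it had the highest signal of the 5 treated normal arrays in 9 and the lowest in 0. The pattern was not limited to that list. Of 9 oxidative defence genes it was highest in 7 and lowest in 1, and of 8 heme genes highest in 0 and lowest in 5. It was highest in 3 of 7 zinc and copper genes and in 2 of 11 iron transport genes. Over all tested probe sets it was highest in 23.3%, beside 16.3% to 24.4% in the other 4 arrays. Cdkn1a, a cell cycle inhibitor induced by p53, had 2740.7 in that array against 395 to 1077.5 in the others, and Gadd45a, a growth arrest gene, 8777.5 against 1840.8 to 2859.4. The zinc exporter Slc30a2 had 1756.5 in it against 316 to 681.2.

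Tfrc, the transferrin receptor, was the iron gene with the widest differences, and it was low in both diabetic groups. M58040_at had 74.9, 2763.9, 171.3, 151.3 and 17.5 in vanadyl-treated diabetic muscle and 135.1, 161.2, 130, 353.9 and 181.6 in diabetic muscle. It had 1867.3, 1692.5, 1435.2, 3476 and 623.7 in treated normal muscle and 853.2, 7396.4, 327.6, 1494.8 and 2007.6 in normal muscle. All 5 diabetic muscles and 4 of 5 treated diabetic muscles were at or below 353.9, while all 5 treated normal and 4 of 5 normal muscles were at or above 623.7. The exceptions were treated diabetic replicate 2, at 2763.9, and normal replicate 3, at 327.6, so the groups overlapped. The signal was above the array's 40th percentile in 1 treated diabetic, 1 diabetic, 5 treated normal and 4 normal arrays, so Tfrc passed the filter mainly through the groups where it was high.

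Neither diabetic comparison of Tfrc passed limma's test over all probe sets. Diabetic minus normal muscle was -2.91 ± 0.88 on the log2 scale (SE), with limma's adjusted p = 0.093, and 0.124 when no filter was applied. Vanadyl-treated diabetic minus treated normal muscle was -3.05 ± 0.88 (SE), with limma's adjusted p = 0.141, and 0.199 with no filter. Since most arrays of the diabetic groups were dim at this probe set, no fold is given. Without treated diabetic replicate 2, limma called both, at -2.91 (adjusted p = 0.0261, and 0.0389 with no filter) and -4.02 (adjusted p = 0.0232, and 0.0322 with no filter). That array is in neither group of the first comparison, so the difference stayed at -2.91. Only the spread shared by the 4 groups and the adjustment could move that call. The same fit with the filter called 100 of 5991 probe sets in the first comparison and 153 in the second. With all arrays these numbers were 110 and 0 of 6027. Without the 3 arrays of high Gapdh ratio, which include normal replicate 3, diabetic minus normal muscle was -3.86 with limma's adjusted p = 0.0234, and 0.0322 with no filter. That fit, with the filter, called 467 of 5873 probe sets in the comparison, so calls became more frequent in general. Most alternatives gave no call of Tfrc. For diabetic against normal muscle, limma's adjusted p ran from 0.0234 to 0.542 over 32 alternatives, with 4 calls. For treated diabetic against treated normal muscle it ran from 0.0232 to 0.488 over 32, with 2 calls.

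For treatment, the Tfrc difference had a wide error. Vanadyl-treated diabetic minus diabetic muscle was -0.02 ± 0.88 on the log2 scale (SE, adjusted p = 0.993 by limma), and -0.98 without treated diabetic replicate 2 (adjusted p = 0.431 by limma). Treated normal minus normal muscle was 0.12 ± 0.88 (SE, adjusted p = 0.974 by limma). The means were 7.59 ± 2.37 in treated diabetic, 7.61 ± 0.54 in diabetic, 10.64 ± 0.88 in treated normal and 10.52 ± 1.63 in normal muscle (SD, n = 5 each). These errors do not show that treatment left Tfrc unaltered.

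Measures of RNA quality also differed among these arrays. For beta-actin, the log2 of 3' over 5' signal ran from 1.20 to 2.61 in vanadyl-treated diabetic, 0.93 to 2.52 in diabetic, 0.48 to 2.09 in treated normal and 0.58 to 3.01 in normal muscle. The treated diabetic array with high Tfrc, replicate 2, had the lowest of its group, 1.20, and the normal array with the lowest Tfrc, replicate 3, had 1.68. Normal replicate 1, with the highest ratio of all arrays, 3.01, had a Tfrc signal of 853.2. Other arrays went the other way. Diabetic replicates 2 and 4 had low ratios, 0.93 and 1.05, with Tfrc signals of only 161.2 and 353.9. Treated normal replicate 1 had the highest ratio of its group, 2.09, with a Tfrc signal of 1867.3. With both ratios as covariates, diabetic minus normal muscle was -3.38 with limma's adjusted p = 0.0965. The summed signal of 4 endothelial genes ran from 951 to 2783 in vanadyl-treated diabetic, 2038 to 3472 in diabetic, 2564 to 6443 in treated normal and 999 to 7668 in normal muscle. Its highest arrays in the treated diabetic and the normal group, both replicate 2, were those with the highest Tfrc, and normal replicates 1 and 3, with the lowest Tfrc of their group, had the lowest sums, 999 and 1748. The other groups did not show this. In treated normal muscle, replicate 5 had the highest sum, 6443, and the lowest Tfrc, 623.7. Replicate 4 of that group had the highest Tfrc, 3476, at a sum of 3017. In diabetic muscle the highest sum, 3472 in replicate 2, came with a Tfrc signal of 161.2. The part of RNA quality or of endothelium in the Tfrc differences was not tested beyond these values. The genes most like Tfrc over the 20 arrays were Mpi (r = 0.87), Serpine2 (0.85), Ppp3cb (0.85) and Kyat1 (0.85), out of 3578 genes. After subtracting group means they were Mpi (0.86), Stk38 (0.85), Ntan1 (0.83) and Hivep2 (0.83). The points share arrays, scaling and RNA quality.

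Slc11a2, the divalent metal transporter that carries iron out of endosomes, had 3 probe sets, and none of their differences passed limma's test. AF008439_g_at, the brightest within its arrays, ran from 2184.2 to 3097.8 in vanadyl-treated diabetic, 1655.5 to 2258.4 in diabetic, 1893.9 to 2854.1 in treated normal and 1979.8 to 3197.9 in normal muscle. Of the 5 treated diabetic muscles, 4 were above every diabetic muscle, and replicate 4 was within their range. The difference of treated diabetic from diabetic muscle was 0.55 ± 0.20 on the log2 scale (SE), 1.47-fold, which did not pass (limma's unadjusted p = 0.0114, adjusted p = 0.20).

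The second Slc11a2 probe set, rc_AA892390_s_at, ran from 284.6 to 1296 in vanadyl-treated diabetic, 271.5 to 598.9 in diabetic, 660.2 to 888 in treated normal and 428.7 to 1085.7 in normal muscle. Within each pair of groups that was compared, the signals overlapped. Diabetic minus normal muscle was -0.81 ± 0.36 on the log2 scale (SE, adjusted p = 0.262 by limma), beside -0.33 ± 0.20 (SE, adjusted p = 0.414 by limma) at AF008439_g_at and -0.82 ± 0.51 (SE, adjusted p = 0.428 by limma) at AF008439_at, all of the same sign. AF008439_at was dim, above the 40th percentile in 5 of 20 arrays, 3 of them normal, the group with its highest mean. Its signals ran from 55.7 to 385 in treated diabetic, 54.7 to 261.4 in diabetic, 95.3 to 248.2 in treated normal and 78.2 to 566.4 in normal muscle. For treated diabetic against diabetic muscle the 3 probe sets gave 0.55, 0.38 and -0.21, the last from the dim AF008439_at with an SE of 0.51, so their signs differed only by a value within its error. AF008439_at and rc_AA892390_s_at had a correlation of 0.74 over the 20 arrays, and AF008439_at and AF008439_g_at one of -0.29. For AF008439_g_at and rc_AA892390_s_at it was 0.12, so the brightest probe set followed neither of the others.

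Ceruloplasmin, the copper-bearing ferroxidase, showed no change that passed limma's test. Its brightest probe set, L33869_at, ran from 248.9 to 2562.2 in vanadyl-treated diabetic, 365.7 to 1253.1 in diabetic, 421.6 to 1000.8 in treated normal and 278.6 to 654.8 in normal muscle. The highest arrays of the treated diabetic and diabetic groups were both numbered replicate 5, and these 2 arrays also had the highest hepatocyte sums of their groups, 54532 and 92836; whether liver messenger contributed was not tested. Diabetic minus normal muscle was 0.64 ± 0.46 on the log2 scale (SE, adjusted p = 0.501 by limma) and treated diabetic minus diabetic muscle 0.05 ± 0.46 (SE, adjusted p = 0.976 by limma). Y12178_at was dimmer, between 107.8 and 536.2 in all 20 arrays, with a difference of -0.33 ± 0.34 (SE, adjusted p = 0.654 by limma) for diabetic against normal muscle, opposite in sign to L33869_at. The untested rc_AA817854_s_at ran from 42.5 to 452.7 and was above the 40th percentile in 2 of 20 arrays.

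**Figure D5:**
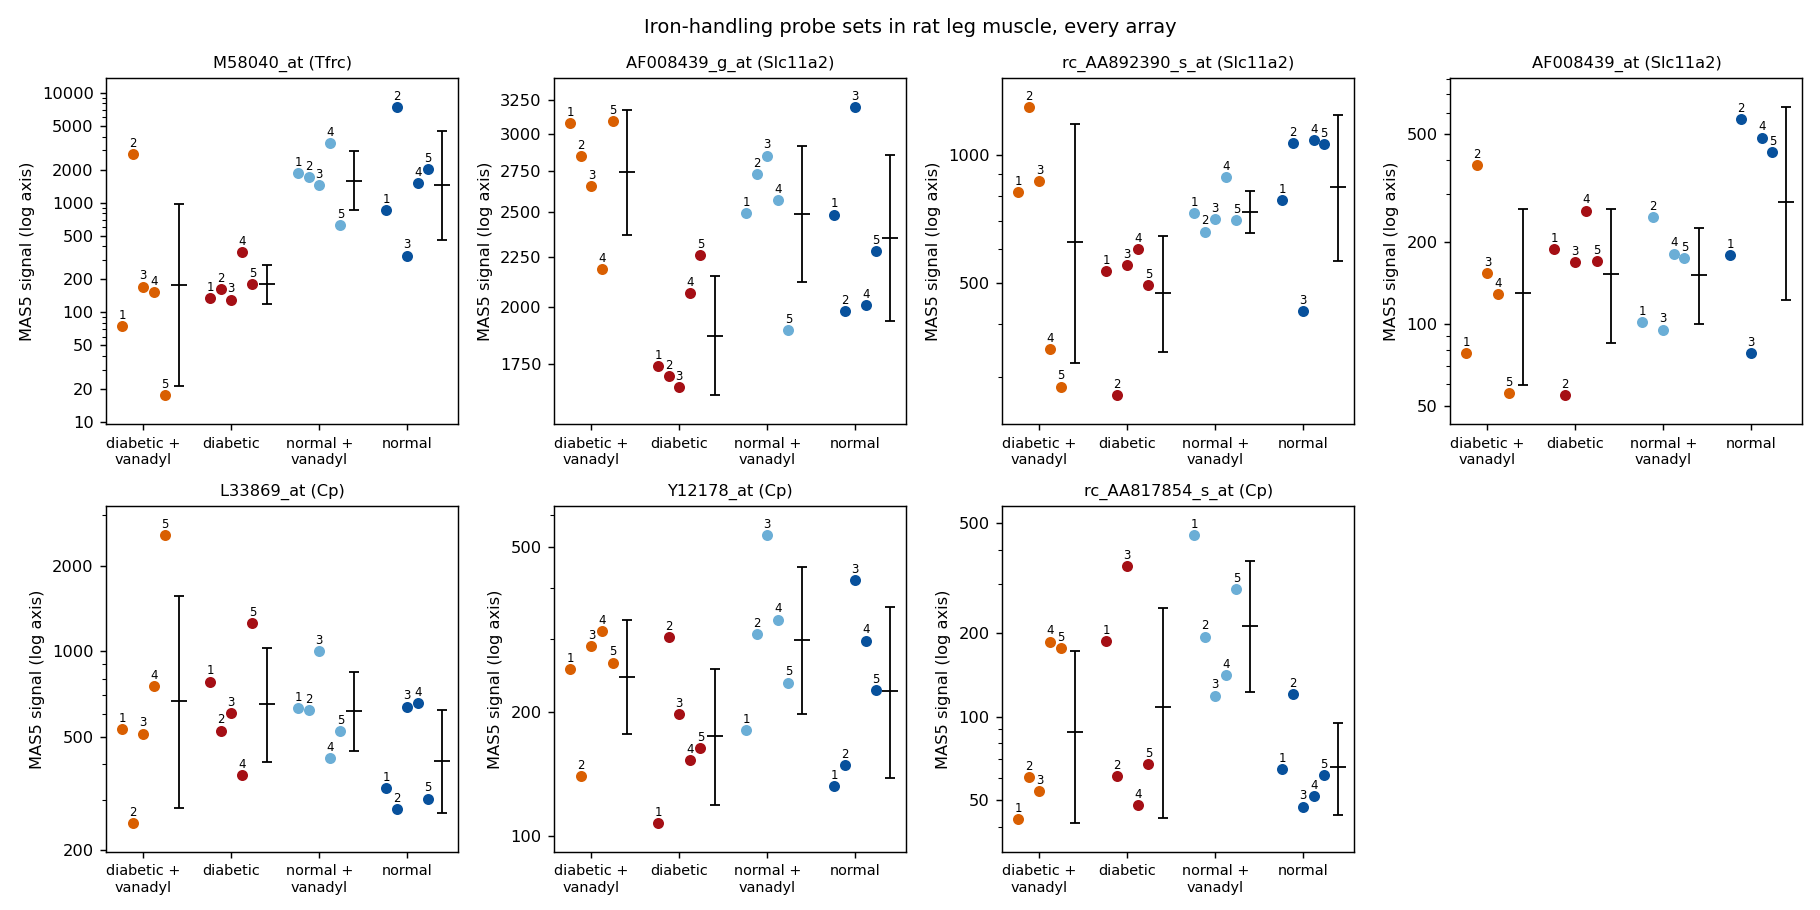
MAS5 signal (log axis) of the 7 iron-handling member probe sets in every array; points are arrays labelled by replicate number, and the bar beside each group is the mean ± SD of log2(signal + 16), n = 5, drawn back on the signal scale. Tfrc is at or below 353.9 in all diabetic arrays and in 4 of 5 vanadyl-treated diabetic arrays.

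The iron carrier and the stores could only be read from probe sets annotated to several genes. D38380_at, annotated to Tf and Srprb, ran from 1777.4 to 4232.8 in vanadyl-treated diabetic, 3149.8 to 12949.7 in diabetic, 1551.8 to 4027.2 in treated normal and 1632.5 to 5484.6 in normal muscle. The highest value was that of diabetic replicate 5, the array with the highest hepatocyte sum. For D38380_at, D38380_g_at and U31866_g_at, the 3 probe sets annotated to Tf and Srprb, vanadyl-treated diabetic minus diabetic muscle was -0.77 ± 0.41, -0.60 ± 0.47 and -1.32 ± 0.44 on the log2 scale (SE, adjusted p = 0.363, 0.542 and 0.169 by limma). Diabetic minus normal muscle was 0.74 ± 0.41, 0.72 ± 0.47 and 0.70 ± 0.44 (SE, adjusted p = 0.372, 0.458 and 0.436 by limma). The liver genes F2 (prothrombin, r = 0.72) and Apoc1 (0.69) were among the 4 genes most like D38380_at over the 20 arrays.

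For ferritin, the heavy chain probe set rc_AI169802_at, annotated to Fth1 and a pseudogene, was bright in every array, between 36306.4 and 91811.3. Vanadyl-treated diabetic minus diabetic muscle was 0.50 ± 0.22 on the log2 scale there (SE, adjusted p = 0.264 by limma). A light chain probe set, rc_AI231807_g_at, annotated to Ftl1, several Ftl1-like copies and Ripor2, ran from 1648 to 6271.2 in treated diabetic, 5240.8 to 11571.4 in diabetic, 2982.1 to 5573.1 in treated normal and 2508.8 to 6299.7 in normal muscle. Its differences were -0.91 ± 0.35 (SE, adjusted p = 0.222 by limma) for treated diabetic against diabetic and 0.95 ± 0.35 (SE, adjusted p = 0.158 by limma) for diabetic against normal muscle. The brighter light chain probe set, rc_AI231807_at, gave -1.34 ± 0.48 and 0.87 ± 0.48 there (SE, adjusted p = 0.193 and 0.366 by limma). The heavy and light chain probe sets thus had opposite signs in both comparisons, with -0.23 ± 0.22 (SE, adjusted p = 0.627 by limma) for the heavy chain in the second, and none passed the test.

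Other genes of iron transport and its regulation did not pass in any of the 5 comparisons by limma. Of 32 genes on that list 11 were on the array, all 11 were tested, and their median log2 change in diabetic against normal muscle was -0.14, beside -0.06 over all tested probe sets. The value farthest from 0 was that of B2m, the partner of the iron regulator Hfe and of class I molecules, at 1.00 ± 0.30 (SE, adjusted p = 0.089 by limma). Slc40a1 (ferroportin), the cellular iron exporter, was at -0.14 ± 0.26 (SE, adjusted p = 0.835 by limma) for diabetic against normal and -0.69 ± 0.26 (SE, adjusted p = 0.221 by limma) for treated diabetic against diabetic muscle. The iron regulatory protein genes Aco1 and Ireb2 were at -0.18 ± 0.25 and -0.19 ± 0.64 (SE, adjusted p = 0.763 and 0.917 by limma) for diabetic against normal muscle. Ireb2 was at -2.29 ± 0.64 (SE, adjusted p = 0.141 by limma) for treated diabetic against treated normal muscle and at -2.11 ± 0.90 (SE, adjusted p = 0.327 by limma) for the interaction.

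Among genes that make or break down heme, the iron-holding group of myoglobin and the cytochromes, 1 of 8 tested genes fell in diabetic against normal muscle and 0 rose. Over all tested probe sets 0.564% were called lower and 1.26% higher. The gene that fell was Alas1, the enzyme of the first step of heme synthesis in most tissues. Alas1 had 5337.2, 6432.8, 4191.6, 3447.9 and 1355.5 in vanadyl-treated diabetic, 1522.7, 1829.6, 1230.8, 1886.3 and 2530.2 in diabetic, 6154.4, 4980.5, 3272.5, 9598.5 and 2081.6 in treated normal, and 6398.2, 7270.9, 6072.8, 13674.7 and 11249.6 in normal muscle. Every diabetic muscle was below every normal muscle, and treated diabetic replicates 1 to 4 were above every diabetic muscle. The share of all tested probe sets that lay lower in diabetic muscle without overlap is not given here. The fall was -2.26 ± 0.42 on the log2 scale (SE), 4.80-fold, with limma's adjusted p = 0.00838, and -2.03 with an adjusted p = 0.191 by limma without diabetic replicates 1 and 3 together. Treated diabetic minus diabetic muscle was 1.07 ± 0.42 (SE) and did not pass (limma's adjusted p = 0.23). Heme oxygenase Hmox1, which frees iron from heme and is induced by oxidative stress, was at 0.33 ± 0.25 (SE, adjusted p = 0.511 by limma) for diabetic against normal muscle. The median of the 8 heme genes in that comparison was -0.19, beside -0.06 over all tested probe sets.

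Genes of zinc and copper handling gave 0 calls by limma in 7 tested of 17 listed, in all 5 comparisons, with a median of -0.07 for diabetic against normal muscle. Slc30a2 and Slc30a4, zinc transporters, were at -0.07 ± 0.48 and 0.37 ± 0.26 (SE, adjusted p = 0.961 and 0.479 by limma). Of 9 tested oxidative defence genes 0 passed by limma in the 5 comparisons. Their median for diabetic against normal muscle was 0.45, beside -0.06 over all tested probe sets. The glutathione peroxidase gene Gpx3 was nearest, at 1.41 ± 0.37 (SE, adjusted p = 0.0537 by limma).

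Of the 16 tested glucocorticoid and stress induced genes, 2 rose in diabetic against normal muscle and 0 fell, with a median of 0.43. Over all tested probe sets 1.26% were called higher and 0.564% lower, with a median of -0.06. Nfkbia, the inhibitor of NF-kappa-B, had 1768.3, 1049.3, 1028.2, 2094.8 and 2184.4 in vanadyl-treated diabetic, 3825.4, 1933.1, 4303.9, 2326.1 and 2491.7 in diabetic, 1159.9, 865.8, 1104.6, 985.8 and 1344.2 in treated normal, and 1044.9, 704.3, 788.5, 702.5 and 1023.9 in normal muscle. Its rise was 1.74 ± 0.27 on the log2 scale (SE), 3.34-fold, with limma's adjusted p = 0.00257. Every diabetic muscle was above every normal muscle, as for 3.33% of all tested probe sets.

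Cebpd, a transcription factor of the acute phase and of glucocorticoid response, had 2273.6, 1466.6, 1716.5, 2624 and 3443.7 in vanadyl-treated diabetic, 5022.6, 3285.5, 6924.6, 3165.1 and 3603 in diabetic, 1390.9, 2452.3, 1548.3, 1188 and 2871.7 in treated normal, and 2178.1, 1639.2, 1033.3, 1504.6 and 884.8 in normal muscle. Its diabetic muscles all lay above its normal muscles, as for 3.33% of all tested probe sets. Its rise was 1.60 ± 0.32 on the log2 scale (SE), 3.03-fold, with limma's adjusted p = 0.0148. The call of Cebpd was lost without diabetic replicate 1 (adjusted p = 0.0593 by limma), without diabetic replicate 3 (0.0599) without normal replicate 5 (0.0547) and with the 3' to 5' ratios as covariates (0.0965). Without diabetic replicates 1 and 3 together, Nfkbia was at 1.40 with an adjusted p = 0.124 by limma and Cebpd at 1.27 with an adjusted p = 0.266 by limma. In the other 4 comparisons 0 of the 16 passed by limma.

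Both genes were among the 6 most like rc_AI176456_at over the 20 arrays, out of 3578 genes. These were Ankrd1 (r = 0.89), a muscle ankyrin repeat protein induced by stretch and injury, Cebpd (0.84), the leukocyte genes Fcgr2b (0.84) and Lgals3 (0.83), Nfkbia (0.83) and Aldoc (0.83), an aldolase. After each group's mean was subtracted, the most like were Rbl2 (0.87), Cdkn1a (0.82), Nol3 (0.81), Glul (0.79), Gas5 (0.75) and Hgs (0.72), so no gene was in both lists. Fcgr2b and Lgals3 had 0.42 and 0.41 on that second measure, and Cebpd and Nfkbia 0.63 and 0.61. Of the 20 arrays, treated normal replicate 5 lies farthest from its group mean at rc_AI176456_at. These are correlations over arrays that share scaling, RNA quality and groups, and they carry no p. Before group means are subtracted they include the differences between groups. Since rc_AI176456_at was picked from its values, and Cebpd and Nfkbia were called on such a difference, their likeness adds no separate evidence.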

How the data were processed

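Rear-leg muscle RNA was measured on 20 one-colour arrays, 1 per sample, in 4 groups of 5. The values the authors deposited are linear signal intensities, 1 for each probe set on each array; per the submitters' processing notes they come from MAS5, and neither its version nor a genome build is given in the sources used. With 2% trimmed from both ends, array means ran from 2503.4 to 2506.5, so the authors' scaling was kept. Detection calls are not part of the table, and dimness was judged by rank within the array. The number of arrays limits the precision.

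From the intensities, log2(signal + 16) was computed, 59 control probe sets were left out, and group means were fitted to all 20 arrays with limma (version 3.58.1, in R 4.3.3) by lmFit and eBayes over 6027 probe sets, two-sided, with Benjamini-Hochberg adjustment. The script was tested on simulated data. Members were every probe set under the rule; the genes most like a member were the 6 (for rc_AI176456_at) or 4 with the highest Pearson correlation. The members, gene lists and marker lists were chosen with earlier results of these data known, so their counts are not independent evidence. Alternatives were other pseudocounts, no filter, quantile normalization, a trended robust eBayes, fits of 2 groups, the replicate number as a block, each array left out, arrays of high Gapdh ratio left out, and 3' to 5' ratios as covariates; leaving out diabetic replicates 1 and 3 together, and leaving out treated diabetic replicate 2 or the arrays of high Gapdh ratio with no filter, were chosen after seeing the data. Deviations of same-numbered arrays from their group means had r of -0.28 to 0.62 over 30 pairs, with 11 over 0.1, so not every pair deviated together and the numbers were not taken as pairs. Promoter windows came from RefSeq (GRCr8), where 8 of 9 genes looked up were found.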

Additional observations from a re-analysis of the deposited data

Results flagged for a closer look

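In 3 of 40 combinations of a member probe set and a group, 1 array lay far from the other 4, its gap to the nearest divided by the range of the group being above Dixon's critical value of 0.71; chance gives about 1 in 20 such flags. The metallothionein probe set rc_AI176456_at was at 15.42 (log2) in vanadyl-treated normal replicate 5, a signal of 43791.8 against 3992.4 in the nearest array of the group, and the gap was 0.76 of the range. Since rc_AI176456_at was picked from its values, its flag is a description and not a test. The Slc11a2 probe set rc_AA892390_s_at was at 8.17 in diabetic replicate 2, a signal of 271.5 against 493 in the nearest array, with a gap of 0.75. The Cp probe set Y12178_at was at 7.29 in vanadyl-treated diabetic replicate 2, a signal of 140 against 253.8 in the nearest array, with a gap of 0.73.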

How the results depend on the processing

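The number of members called in diabetic against normal muscle was 1; it was 2 without the arrays of high Gapdh ratio, with the filter or, chosen after seeing the data, with no filter, 0 with the 3' to 5' ratios as covariates, 0 without diabetic replicates 1 and 3 together (chosen after seeing the data), and 1 to 2 when single arrays were left out, the 2 coming without vanadyl-treated diabetic replicate 2, also with no filter. In vanadyl-treated diabetic against treated normal muscle it was 0, and 0 to 1 when single arrays were left out, the 1 again without that replicate, also with no filter. In the other 3 comparisons it stayed at 0 under all alternatives run. The difference of rc_AI176456_at between treated diabetic and treated normal muscle, -0.72, ran from -1.11 to 0.10 when single arrays were left out and changed sign, to 0.10, without treated normal replicate 5. Of 1853 recomputed log2 changes of members and called list genes, 1837 were labelled the same, 9 calls were lost, 6 were gained and 1 difference changed sign. The same meant an unchanged side of the threshold and, where called, an unchanged direction. The differences of rc_AI176456_at, which carries no test, were judged by sign and size alone, and the change of sign was among them. The causes were not tested. With the replicate number as a block the member counts were unchanged, at 1 in diabetic against normal muscle and 0 in the other 4, and in 17 of 60 pairs of an array and another group the best correlation was with the array of the same number. Over all tested probe sets, calls in diabetic against normal muscle numbered 110, but 467 without the arrays of high Gapdh ratio, 32 with the ratios as covariates, 62 with no filter, 71 with the 2 groups alone, 23 to 258 when single arrays were left out (23 and 24 without diabetic replicate 3 or 1), and 1 without both of these. In treated diabetic against diabetic muscle 30 became 0 without both, 11 with the 2 groups alone, 19 with no filter and 9 to 59 when single arrays were left out. In treated diabetic against treated normal muscle 0 became 153 without treated diabetic replicate 2 and 16 with the replicate block. The 4 calls in treated normal against normal muscle and the 10 of the interaction fell to 0 and 1 under quantile normalization.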
